A study of Mus musculus with 6 samples.

Results

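The genes described here encode chromatin cofactors linked, directly or through shared complexes, to Pax7, a DNA-binding paired domain protein that maintains muscle stem cells. They were the 10 genes Paxip1, Pagr1a, Carm1, Kmt2a, Kmt2c, Kmt2d, Wdr5, Ash2l, Rbbp5 and Dpy30, chosen by name, and all 10 had a probe set that names no other gene, out of 22180 genes measured. RNA came from mouse embryonic fibroblasts (MEFs), connective tissue cells cultured from embryos, in 2 groups: Pax7-/- cells, which lack functional Pax7, and Pax7+/+ cells, which are wild type. Each genotype had 3 arrays, numbered by the labels as biological replicates 1 to 3. Both genotypes had the F1 (C57Bl6N x 129Sv) background, were grown in DMEM with FBS and antibiotics, and were harvested untreated at confluence. The sources used here do not say how the Pax7 allele was made or which embryos or cultures the replicate numbers stand for, so p-values measure only the spread between these samples, which may be technical. The comparison addresses whether these genes are themselves expressed differently in fibroblasts that lack Pax7.

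Methylation of histone H3 on lysine 4 marks active promoters and enhancers. It is written by Kmt2 family enzymes, each of which depends on the shared core of Wdr5, Rbbp5, Ash2l and Dpy30. Kmt2a acts mainly at promoters, the Hox genes among them, and Kmt2c and Kmt2d act mainly at enhancers in a complex that also holds Paxip1 and Pagr1a. In mouse muscle stem cells the arginine methyltransferase Carm1 methylates Pax7, which then brings Kmt2 complexes to target genes such as Myf5.

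The RefSeq promoter table (GRCm38.p6) held 8 of the 10 genes. The 250 bases before the transcription start are shown for Paxip1, which links Pax proteins to the methyltransferase complex, and for the core subunits Rbbp5 and Wdr5, which had the most negative and the most positive genotype difference of the 10. Capitals mark ATTA, the core of homeodomain sites (TAAT on the other strand), and GGGCGG, the GC box (CCGCCC on the other strand). The windows are chr5:27791551-27791800 on the minus strand for Paxip1, chr1:132477117-132477366 on the plus strand for Rbbp5 and chr2:27514897-27515146 on the plus strand for Wdr5.
Paxip1: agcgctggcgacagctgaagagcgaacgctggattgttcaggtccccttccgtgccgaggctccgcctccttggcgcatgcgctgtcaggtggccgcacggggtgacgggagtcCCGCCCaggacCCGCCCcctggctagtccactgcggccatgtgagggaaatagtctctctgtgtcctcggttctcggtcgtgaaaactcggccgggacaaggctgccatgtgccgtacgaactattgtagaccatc
Rbbp5: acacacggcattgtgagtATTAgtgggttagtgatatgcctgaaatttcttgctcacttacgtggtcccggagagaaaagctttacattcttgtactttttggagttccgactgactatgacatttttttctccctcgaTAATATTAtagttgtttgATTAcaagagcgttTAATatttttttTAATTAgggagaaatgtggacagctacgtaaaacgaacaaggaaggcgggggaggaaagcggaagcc
Wdr5: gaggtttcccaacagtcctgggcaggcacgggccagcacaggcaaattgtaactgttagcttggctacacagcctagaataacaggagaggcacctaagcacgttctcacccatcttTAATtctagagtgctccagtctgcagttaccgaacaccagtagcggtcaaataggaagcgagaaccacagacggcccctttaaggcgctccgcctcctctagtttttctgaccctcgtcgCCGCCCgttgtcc
On both strands and counting overlaps, ATTA began at 7 positions in the Rbbp5 window, 1 in that of Wdr5 and 0 in that of Paxip1. It was present in 54.9% of 32851 promoter windows of the same length. GGGCGG was found at 2 positions for Paxip1, 1 for Wdr5 and 0 for Rbbp5, beside 32.7% of all windows with at least 1. GTCACG, a core of paired domain sites, was found in no window of the 8 genes, beside 6.93% of all windows. Of the 11 windows of these genes, 4 of which belong to Dpy30, 9 had an observed to expected CpG ratio over 0.6, beside 34.0% of all windows. A match of letters is a description and not a binding site.

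The values are log2 signals, normalized by the authors with RMA, and differences are Pax7-/- minus Pax7+/+, so that 1 is a doubling. Pax7 itself, read by 1 probe set, had 6.17, 5.95 and 5.05 in Pax7-/- replicates 1, 2 and 3 and 6.14, 5.65 and 4.88 in Pax7+/+ cells. The genotypes overlapped (0.16, SE 0.44; limma, adjusted p = 1). The sources used here do not place the probe set relative to the altered part of Pax7, so this does not check the genotype. Both replicate 3 arrays stood apart: they correlated at 0.992 with each other and at 0.814 to 0.844 with the other 4, which correlated at 0.988 to 0.99 among themselves. Background was set per array at the signal below which 95% of 1394 odorant and vomeronasal receptor genes lay. It was 4.63 and 4.65 on the replicate 3 arrays and 5.33 to 5.44 on the others. Pax7 lay above background on all 6 arrays, but not far above it. In Pax7+/+ cells its 6.14, 5.65 and 4.88 stood against backgrounds of 5.44, 5.33 and 4.65. Of 10 fibroblast markers, 9 lay above background on all 6 arrays, against 1 of 10 pluripotent stem cell markers (Pou5f1), although the cell type label reads ESCs. Of all 22180 genes, 8416 lay above background on all arrays. So did 3 of 5 epithelial, 2 of 5 neural, 1 of 5 macrophage and 0 of 5 endothelial markers, against the background of each array. Of 10 myoblast and muscle markers, 2 lay above it on all arrays and 4 on none. Xist lay above background on all 6 arrays and the Y-linked Kdm5d, Eif2s3y and Uty on none.

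None of the 10 genes passed the test between genotypes (limma with genotype as the only term, smallest adjusted p = 1), and 0% of the 22180 genes did. By an unadjusted p under 0.05 the counts were 0 of the 10 and 15 of all genes (0.0676%). This fit counts the shift between replicates as noise, so it could detect little, and its lack of calls says little about a difference. The fibroblast marker Dcn, at -1.93, passed only when the replicate number was added as a block (limma, adjusted p = 0.000578). The differences of the 10 lay between -0.20 and 0.12 with a median of -0.05, beside a median of 0 over all genes, and all 10 were smaller than 0.25 in size, as were those of 94.2% of all genes. With the replicate number as a block, 0 of the 10 passed (smallest adjusted p = 0.784), beside 0.0766% of all genes, and 0 of the 10 had an unadjusted p under 0.05, beside 6.73%. The 95% intervals of that fit ran from -0.44 to 0.36 over the 10 genes, or 0.739-fold to 1.28-fold. Replicate number, not genotype, took nearly all of the variation: for 9 of the 10 genes it held 93.2% to 99.9% of the sum of squares over the 6 arrays, and genotype 0.0162% to 1.47%, while for Pagr1a the shares were 38.1% and 5.33%. The medians over all genes were 94.3% and 1.14%.

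**Figure D1:**
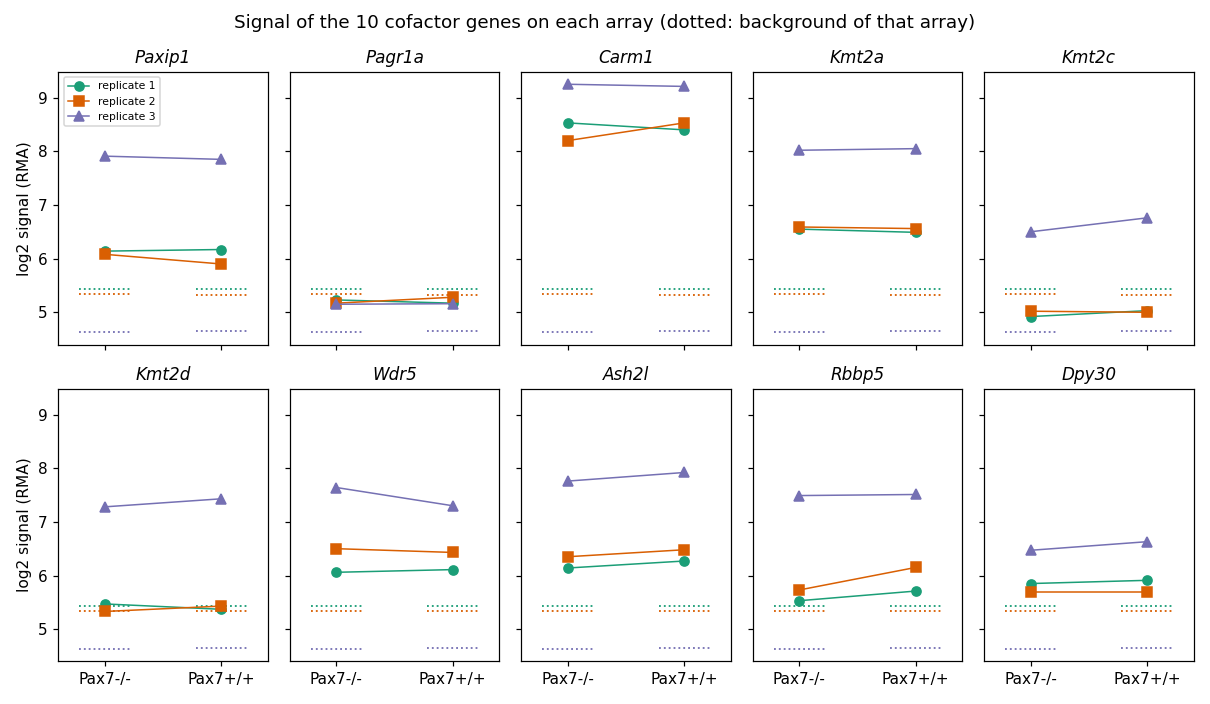
Log2 signal (vertical axis) of each gene in Pax7-/- cells (left) and Pax7+/+ cells (right), 1 point per array, with lines joining arrays of the same replicate number and dotted lines at the background of each array. The lines are nearly flat, and replicate 3 lies above replicates 1 and 2 in both genotypes for every gene but Pagr1a.

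Paxip1 (also called PTIP) is the adaptor that binds Pax proteins and the Kmt2c and Kmt2d complexes. Its signal was 6.14, 6.08 and 7.91 in Pax7-/- replicates 1, 2 and 3 and 6.17, 5.90 and 7.85 in Pax7+/+ cells. The genotypes overlapped, and both were high in replicate 3. The differences by replicate number were -0.03, 0.18 and 0.07, with a mean of 0.07 (SE 0.73 without and 0.09 with the block) and a blocked interval of 0.909-fold to 1.21-fold. A second Paxip1 probe set, 17435567, had signals of 4.11 to 4.70 in Pax7-/- and 4.13 to 4.42 in Pax7+/+ cells, above background only in Pax7-/- replicate 3, and no difference is given for it.

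Pagr1a, the small partner of Paxip1, had signals of 5.23, 5.17 and 5.15 in Pax7-/- replicates 1, 2 and 3 and of 5.17, 5.28 and 5.16 in Pax7+/+ cells. These lay above background on the replicate 3 arrays only. Its mean difference was -0.02 (SE 0.15 without and 0.09 with the block), with 0.06, -0.11 and -0.01 by replicate number. A further 2 probe sets name Pagr1a together with another gene: that shared with Mvp had 6.33, 6.21 and 7.02 in Pax7-/- and 6.14, 6.49 and 7.06 in Pax7+/+ cells, and that shared with Prrt2 had 5.80, 5.65 and 6.07 in Pax7-/- and 5.96, 5.87 and 6.21 in Pax7+/+ cells. The Prrt2 one was lower in Pax7-/- in each pair (-0.15, -0.22 and -0.14) and the Mvp one was not (0.18, -0.29 and -0.04). Neither was tested, and their signal cannot be assigned to 1 gene.

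Carm1, the arginine methyltransferase that modifies Pax7 and histone H3, had 8.53, 8.20 and 9.25 in Pax7-/- replicates 1, 2 and 3 and 8.40, 8.53 and 9.21 in Pax7+/+ cells. It lay well above background on every array, and the genotypes overlapped. The differences by replicate number were 0.13, -0.33 and 0.04, the widest spread among the 10 genes (SD 0.25, n = 3 pairs), with a mean of -0.05 (SE 0.36 without and 0.11 with the block). Without replicate 2 of both genotypes the mean was 0.09.

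Among the methyltransferases, Kmt2a (also called MLL1) had 6.55, 6.59 and 8.02 in Pax7-/- replicates 1, 2 and 3 and 6.49, 6.56 and 8.05 in Pax7+/+ cells. Same-numbered arrays differed by no more than 0.06 in either direction (0.06, 0.03 and -0.03; mean 0.02, SE 0.60 without and 0.09 with the block). The enhancer enzyme Kmt2c had 4.92, 5.02 and 6.50 in Pax7-/- and 5.03, 5.0 and 6.76 in Pax7+/+ cells, and was above background on the replicate 3 arrays only. Its differences were -0.11, 0.02 and -0.26 (mean -0.11, SE 0.66 without and 0.10 with the block). Its close relative Kmt2d had 5.47, 5.33 and 7.28 in Pax7-/- and 5.37, 5.43 and 7.43 in Pax7+/+ cells, at the background level in replicates 1 and 2 and clearly above it in replicate 3. Its differences were 0.10, -0.10 and -0.15 (mean -0.05, SE 0.79 without and 0.10 with the block). For both enhancer enzymes the genotype difference above background thus rests on 1 pair of arrays.

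The core subunits were above background on all arrays. Wdr5, the WD40 protein that anchors the core to Kmt2 enzymes, had 6.06, 6.50 and 7.64 in Pax7-/- replicates 1, 2 and 3 and 6.11, 6.43 and 7.30 in Pax7+/+ cells. Its differences were -0.04, 0.07 and 0.34, and its mean of 0.12 (SE 0.51 without and 0.10 with the block) was 0.01 without replicate 3. Rbbp5, which with Ash2l activates the enzymes, had 5.53, 5.73 and 7.49 in Pax7-/- and 5.71, 6.15 and 7.51 in Pax7+/+ cells. Its differences were -0.18, -0.41 and -0.01, with a mean of -0.20 (SE 0.70 without and 0.10 with the block; limma with the block, adjusted p = 0.784). Without replicate 3 of both genotypes the mean was -0.30 (limma with the block, adjusted p = 0.95). Wdr5 and Rbbp5 thus differed most in different pairs.

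Ash2l had 6.14, 6.35 and 7.76 in Pax7-/- replicates 1, 2 and 3 and 6.27, 6.48 and 7.92 in Pax7+/+ cells. Its 3 differences were the most alike of the 10 genes (-0.12, -0.13 and -0.16, SD 0.02), at a mean of -0.14 (SE 0.63 without and 0.09 with the block; limma with the block, adjusted p = 0.828). Dpy30, the small subunit that binds Ash2l, had 5.85, 5.70 and 6.47 in Pax7-/- and 5.91, 5.70 and 6.63 in Pax7+/+ cells, with differences of -0.06, -0.01 and -0.16 (mean -0.08, SE 0.34 without and 0.09 with the block). Rbbp5, Ash2l and Dpy30 were lower in Pax7-/- in all 3 pairs, 3 of the 10 genes beside 13.8% of all genes tested, and 0 of the 10 were higher in all 3 pairs beside 13.8%. In either direction this makes 3 of 10, beside 27.5% of all genes. No gene of the 10 had genotypes without overlap, beside 1.41% of all genes. For most of these genes replicate 3 stood far from the others in both genotypes. A small difference then leaves overlap even where all 3 pairs agree, as for Ash2l, so overlap alone says little about a difference.

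**Figure D2:**
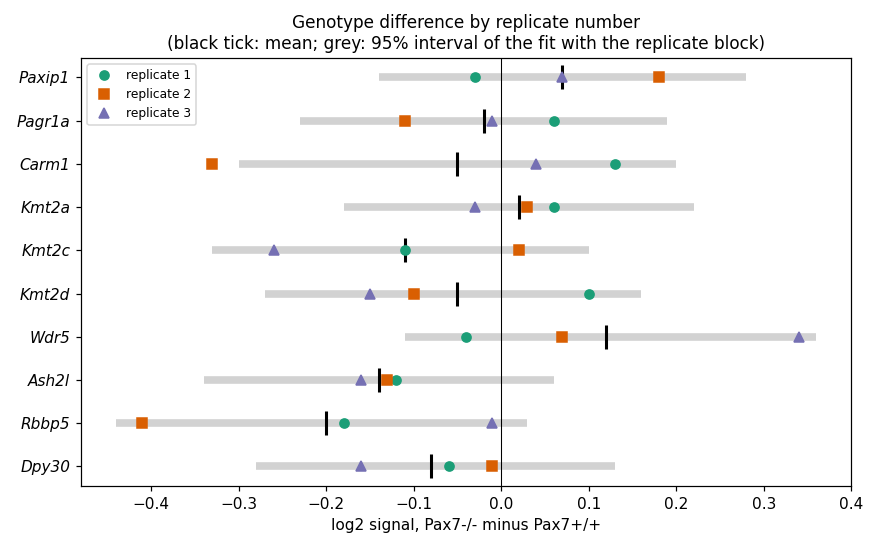
Difference in log2 signal, Pax7-/- minus Pax7+/+ (horizontal axis), for each gene (vertical axis), with 1 point per replicate number, the mean as a black tick and the 95% interval of the limma fit with the replicate block in grey. All 10 intervals include 0, and Ash2l has the least spread between replicate numbers and Carm1 the most.

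The replicate number moved these genes far more than the genotype. Replicate 3 exceeded replicates 1 and 2 in both genotypes for 9 of the 10 genes, beside 40.9% of all genes tested and 67.5% of the 8416 genes above background on all arrays. The replicate 3 signal minus the mean of replicates 1 and 2 was 1.89 in Pax7-/- and 2.03 in Pax7+/+ cells for Kmt2d, 1.80 and 1.81 for Paxip1, and 1.53 and 1.74 for Kmt2c. Rbbp5 stood at 1.86 in Pax7-/- and 1.58 in Pax7+/+ cells, Ash2l at 1.52 and 1.55, Kmt2a at 1.45 and 1.53, and Wdr5 at 1.36 and 1.03. The smallest positive shifts were those of Carm1 (0.88 and 0.74) and Dpy30 (0.70 and 0.82), and Pagr1a stood at -0.05 and -0.06. The median of the 10 was 1.48 in Pax7-/- and 1.54 in Pax7+/+ cells, against 0.80 and 0.82 for genes above background on all arrays. The rise was not particular to these genes. In lists described below, medians in Pax7-/- and Pax7+/+ cells were 1.74 and 1.63 for other H3K4 methyltransferase subunits. They were 1.48 and 1.35 for H3K4 demethylases and partners and 1.49 and 1.56 for Paxip1 partners in DNA repair. H3K27 methylation genes had 1.06 and 1.18, other arginine methyltransferases 1.1 and 1.2, and Pax targets with myogenic regulators -0.72 and -0.76. No test was made, because replicate 3 is 1 array per genotype.

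The replicate 3 arrays also had a wider spread of signal: the interquartile range over genes was 2.98 in Pax7-/- and 3.02 in Pax7+/+ cells, against 1.61 to 1.69 on the other arrays. After quantile normalization, which gives all arrays one distribution, replicate 3 exceeded both other replicates in both genotypes for 8 of the 10 genes, beside 37.7% of all genes. Of these 8, 7 had shown it on the deposited scale; Pagr1a was added, and Carm1 and Wdr5 no longer showed it. The medians of the 10 were then 0.36 in Pax7-/- and 0.35 in Pax7+/+ cells, against -0.09 and -0.09 for genes above background on all arrays. The upper quartiles of those genes were 0.40 and 0.39. The related lists are not given on this scale, so this does not show a shift particular to the 10 genes. Kmt2c (1.29 in Pax7-/- and 1.39 in Pax7+/+ cells) and Kmt2d (1.28 and 1.39) then had the largest shifts, Paxip1 stood at 0.72 and 0.75 and Rbbp5 at 1.08 and 0.65. Kmt2a then stood at 0.24 and 0.31, Wdr5 at 0.30 and 0.04, Carm1 at -0.31 and -0.44, and Pagr1a at 0.22 and 0.18. The direction of the shift therefore depended on the scaling for Carm1 and Pagr1a.

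Replicates 1 and 2 differed in the same direction in both genotypes for 6 of the 10 genes, near the share of all genes (51.4%). These were Wdr5, Rbbp5, Ash2l, Dpy30, Paxip1 and Kmt2a, and the direction was not the same for all 6. Replicate 1 minus replicate 2 was -0.44 in Pax7-/- and -0.33 in Pax7+/+ cells for Wdr5, -0.20 and -0.43 for Rbbp5, -0.21 and -0.21 for Ash2l, 0.16 and 0.21 for Dpy30, 0.05 and 0.26 for Paxip1, and -0.04 and -0.07 for Kmt2a. For Carm1 the sign changed between genotypes, at 0.33 in Pax7-/- and -0.13 in Pax7+/+ cells.

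**Figure D3:**
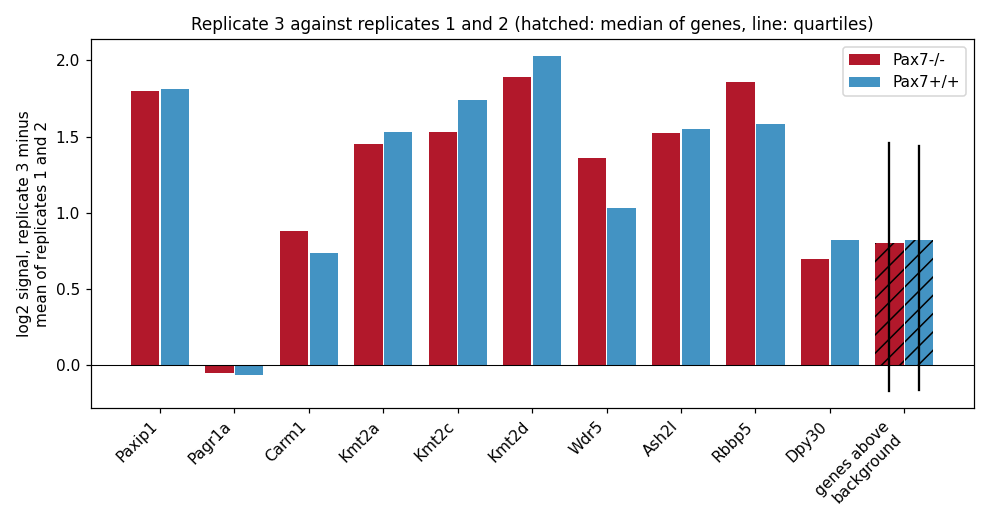
Log2 signal of replicate 3 minus the mean of replicates 1 and 2 (vertical axis) for each gene in Pax7-/- (red) and Pax7+/+ (blue) cells; the hatched bars give the median and the black lines the quartiles of the 8416 genes above background on all arrays. Both genotypes show a shift of similar size for most genes, with Kmt2d highest and Pagr1a near 0. The genotypes are farthest apart for Wdr5 (1.36 in Pax7-/- and 1.03 in Pax7+/+ cells) and Rbbp5 (1.86 and 1.58).

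Related genes were followed as lists of the pathway, in none of which a member passed the test with or without the block. The 13 other subunits of the H3K4 methyltransferase complexes had a median difference of -0.08, with 6 lower and 1 higher in all 3 pairs, beside 13.8% of all genes in each direction. Bod1 had the smallest p of this list: its signal was 7.14, 6.74 and 9.02 in Pax7-/- and 7.52, 7.79 and 9.24 in Pax7+/+ cells, and the difference of -0.55 (SE 0.15 with the block; limma, adjusted p = 0.444) came mostly from replicate 2, at -1.05. Wdr82, which belongs to the Setd1a and Setd1b complexes, had 6.78, 6.74 and 9.06 in Pax7-/- and 6.91, 7.19 and 9.22 in Pax7+/+ cells (-0.24, SE 0.10 with the block; adjusted p = 0.705). The genotypes overlapped for both genes.

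The 8 demethylases of H3K4 and their partners had a median of -0.05, with the demethylases Kdm5a at -0.23 and Kdm5b at 0.17 (SE 0.10 and 0.09 with the block; limma, adjusted p = 0.721 and 0.788). Kdm5a was above background on the replicate 3 arrays only. Of 8 other arginine methyltransferases, 7 were measured, with a median of 0.02. The 2 with the smallest p were Prmt8 at 0.20 and Prmt9 at 0.07, above background on 1 and 2 of the 6 arrays. Genes that write or erase H3K27 methylation, the repressive counterpart, had a median of 0.01 over 10 members, with the demethylase Kdm6b at 0.23 and the Polycomb subunit Eed at -0.18 (limma with the block, adjusted p = 0.734 and 0.798). Eed was above background on the replicate 3 arrays only.

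Pax3, known targets of Pax3 and Pax7 and myogenic regulators had a median of 0.07 over 13 measured members, with 4 higher and 0 lower in all 3 pairs, beside 13.8% of all genes in each direction. Trim54, a muscle ubiquitin ligase, was at 0.19 and Eya2, a transcriptional coactivator of muscle development, at 0.23 (limma with the block, adjusted p = 0.775 and 0.785). Myf5, the target to which Pax7 brings the complex in muscle stem cells, was not above background on any array, with 5.20, 4.93 and 4.27 in Pax7-/- and 5.04, 4.98 and 4.25 in Pax7+/+ cells. The 6 partners of Paxip1 in DNA repair had a median of -0.07, with the repair protein Trp53bp1 at 0.20 and the histone H2ax at -0.19 (adjusted p = 0.750 and 0.816).

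**Figure D4:**
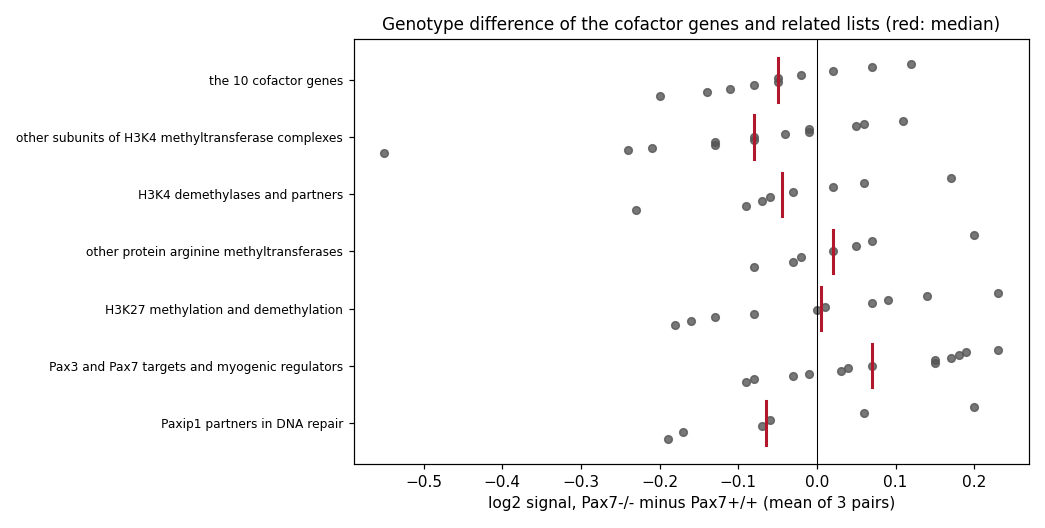
Mean difference in log2 signal, Pax7-/- minus Pax7+/+ (horizontal axis), of each measured gene in the cofactor list and 6 related lists (vertical axis), with list medians in red. The medians lie between -0.08 and 0.07, and the point farthest from 0 is Bod1 at -0.55.

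Genes with signals most like Paxip1 over the 6 arrays, by the root mean square difference of mean-centred log2 signals, were Cuta (0.0269), Enoph1 (0.0390) and Atpaf2 (0.0467). For Carm1 they were Agpat1 (0.0358), Zfp408 (0.0437) and Gpat4 (0.0485). The search covered 11772 genes above background in both genotypes, and 2198 of them lay within 0.25 of Paxip1 and 2834 within 0.25 of Carm1, so the 3 nearest were not set apart from many others.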

How the data were processed

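RNA from 3 Pax7-/- and 3 Pax7+/+ fibroblast samples was measured on Affymetrix arrays. Per the submitters' processing notes, the authors used Partek and RMA to make the deposited log2 signals, 1 per probe set; the sources used here name no versions and no genome build. That the scale is log2 was inferred from the range of the values. No further normalization was applied. Of 41345 probe sets, 23521 name 1 gene in the platform annotation, 1814 several and 16010 none. Only the first were tested, with the brightest probe set per gene (22180 genes). The number of arrays limits the precision.

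Genotypes were compared with limma 3.58.1 under R 4.3.3 (lmFit, then eBayes). Two-sided p-values were adjusted by Benjamini-Hochberg over all genes, with a threshold of 0.05. The fit was checked on simulated data with changes of 2 on the log2 scale. That check does not show whether differences as small as those of the cofactor genes could be detected. Deviations from the genotype mean correlated at 0.92, 0.895 and 0.973 between same-numbered arrays, above the bound of 0.1, so a second fit took the number as a block. This pairing comes from the data and rests on replicate 3, since replicates 1 and 2 of opposite genotype correlated at 0.898 and 0.91. Intervals quoted are from the blocked fit.

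The 10 genes and all lists were chosen with earlier results of these data known. Of each related list, members past the threshold were named, or else the 2 with the smallest p in the blocked fit; other genes of the lists were added for their role. Prmt2 had no single-gene probe set and was not analysed here. Promoter sequences are from RefSeq. Alternatives covered blocks, left-out arrays, normalization, a filter on dim genes, probe set summary and the variance prior.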

Additional observations from a re-analysis of the deposited data

How the results depend on the processing

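None of the 10 cofactor genes passed under any of the 18 other settings tried, 2 of which were chosen after seeing the data, and no paired or unpaired fit changed a call among them. The filter on genes above background on at least 3 arrays left out Pagr1a and Kmt2c. Over all genes, 0 passed without a block, also when 1 array was left out. With the replicate block 17 passed. A block that only set replicate 3 against replicates 1 and 2, a split that no label names as a batch, gave 19. With the replicate block and without replicates 1, 2 and 3 of both genotypes, 98, 2 and 4 passed. Without replicate 3 and without a block 1 passed. Of the settings added later, both with the replicate block, quantile normalization gave 15 and eBayes with trend and robust 46. The median of the 10 genes was -0.10, -0.01 and -0.03 with the block and without replicates 1, 2 and 3, -0.03 without replicate 3 and no block, and -0.03 after quantile normalization with or without the block. Without replicate 1 of both genotypes Kmt2a stood at 0 (just below it), and without replicate 2 Pagr1a stood at 0.02 and Carm1 at 0.09.

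Leaving out 1 array without a block gives the genotypes unequal shares of replicate 3. The median of the 10 genes then ranged from -0.50 to 0.42. Single genes ranged from -0.53 to 0.67 (Paxip1), -0.04 to 0.02 (Pagr1a), -0.35 to 0.19 (Carm1), -0.47 to 0.53 (Kmt2a), -0.63 to 0.47 (Kmt2c), -0.68 to 0.63 (Kmt2d), -0.33 to 0.47 (Wdr5), -0.64 to 0.38 (Ash2l), -0.82 to 0.32 (Rbbp5) and -0.31 to 0.20 (Dpy30), with signs in both directions for each. The cause of these moves was not tested. For Kmt2c, Kmt2d and Pagr1a, signal near the background on replicates 1 and 2 limits what a difference can show.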
